A study of Homo sapiens with 8 samples.

Results

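The insulin-like growth factor (IGF) system was followed through 10 genes: the receptors IGF1R, IGF2R and INSR, the receptor substrates IRS1 and IRS2, and the binding proteins IGFBP2 to IGFBP6. They were taken by gene symbol from a table of 60710 genes, each symbol matched a single row, and all 10 passed the filter on low counts that left 16186 genes for testing. The cells were A375, an established human metastatic melanoma line grown in DMEM with serum, so each group is the same line. NT cells were left untreated and TNF cells received 50 ng/mL human recombinant TNF for 24 hours. Each arm had 4 libraries from 4 independent experiments. Replicate numbers follow the date in the sample titles (the title date), and the titles do not say which step it dates. The comparison asks which parts of the IGF system change in mRNA level when melanoma cells meet TNF, the inflammatory cytokine whose effect on melanoma differentiation the study examined.

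IGF1R and INSR are tyrosine kinase receptors that bind IGF1, IGF2 and insulin and pass the signal through the docking proteins IRS1 and IRS2 to PI3K and AKT. IGF2R, also the mannose 6-phosphate receptor, takes up IGF2 for breakdown in lysosomes and does not signal through a kinase. The secreted IGFBPs hold IGFs in the extracellular space and either restrain or prolong their access to the receptors, and several also act on cells without IGF. In melanoma, IGF1R is a known survival receptor of the tumor cells.

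The libraries held 30989787 to 44373296 expected counts. All 10 listed TNF response genes were higher in TNF cells, among them CXCL8, which went from 6.46 to 1534 CPM, so the labels of treatment matched this readout. The melanocyte lineage regulator SOX10 was at 1025 CPM and MITF at 21.0 CPM in NT cells, while the pigment genes TYR and TYRP1 never passed 5 counts. Of 6 lineage markers tested, 0 were higher in edgeR, DESeq2 and limma voom and 1 was lower, beside 14.5% and 9.9% of all genes in edgeR. At an unadjusted p under 0.05 in edgeR 1 was higher and 1 lower, beside 3150 and 2548 of all 16186 genes. In the fit blocked by date 1 was higher and 1 lower, beside 21.3% and 18.2% of all genes. The lower marker was S100B, a calcium-binding protein used as a melanoma marker, which fell from 17.3 ± 3.93 to 3.05 ± 0.421 CPM (SD, n = 4 each, edgeR adjusted p = 6.77e-06). The summed level of the lineage list was 999.7 to 1144 CPM in NT and 1133 to 1340 CPM in TNF libraries. Most of this sum was SOX10, at 953 to 1084 CPM in NT and 1094 to 1296 CPM in TNF libraries (edgeR adjusted p = 0.0882). The part of the lineage list in the results was not tested. Of 9 markers of other cell types, 6 passed the filter. Of these 6, 4 were higher with TNF and 1 was lower, beside 14.5% and 9.9% of all genes tested. Higher were the macrophage marker CD68 (23.7 to 56.9 CPM) and the fibroblast marker DCN (0.550 to 1.48 CPM). The endothelial marker PECAM1 (0.312 to 2.30 CPM) and the epithelial marker KRT5 (0.192 to 1.61 CPM) were also higher. PECAM1 and KRT5 passed the filter only through their TNF libraries. The epithelial marker KRT14 fell from 18.3 to 8.39 CPM, and the fibroblast marker COL1A1 did not pass the threshold. The summed level of the 9 ran from 42.4 to 47.4 CPM in NT and from 56.1 to 90.3 CPM in TNF libraries. The T cell marker CD3E, the leukocyte marker PTPRC and the epithelial marker EPCAM never passed 5 counts, and the part of the other markers in the results was not tested. Counts of 7SL, 7SK and ribosomal RNA genes made up 0.0119% to 0.0124% of NT replicates 2 and 4 and TNF replicate 4, against 0.00232% to 0.00412% of the others. In bulk RNA, fewer cells expressing a gene and less RNA per cell cannot be told apart.

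TNF moved the IGF binding proteins in opposite directions and left most receptors within their spread. IGFBP3, IGFBP6 and IRS1 were higher in TNF cells, and IGFBP4 and IGFBP2 were lower (edgeR quasi-likelihood test, adjusted p under 0.05). Thus 3 of 10 members were higher, where 14.5% of all genes tested were, and 2 of 10 were lower, where 9.9% of all genes were. The median log2 fold change of the 10 was -0.01 and that of all genes tested was -0.0035, and the median absolute log2 fold change was 0.43 for the 10 and 0.22 for all genes. With the title date as a block, 4 members were higher, beside 21.3% of all genes in that fit, and 4 lower, beside 18.2%. Libraries of the same date were taken to belong together there, and IGF1R, IRS2 and IGFBP5 were added to the calls. All TNF libraries lay above all NT libraries for 3 members (IRS1, IGFBP3 and IGFBP6), beside 15.6% of all genes, and below them for 2 (IGFBP4 and IGFBP5), beside 11.7%. With library totals in place of TMM factors, 2 were higher and 3 lower (IRS1 lost and IGFBP5 gained), beside 11.9% and 15.5% of all genes. Over all genes, 2345 were higher and 1603 lower, against 2045 and 2196 with upper-quartile factors and 1925 and 2514 with library totals. Without both libraries of replicate 4, 4 members were higher and 3 lower, beside 15.2% and 11.5% of the genes tested there. Without the 3 libraries rich in 7SL, 7SK and ribosomal RNA, 3 were higher and 3 lower, beside 12.8% and 8.33%.

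**Figure D1:**
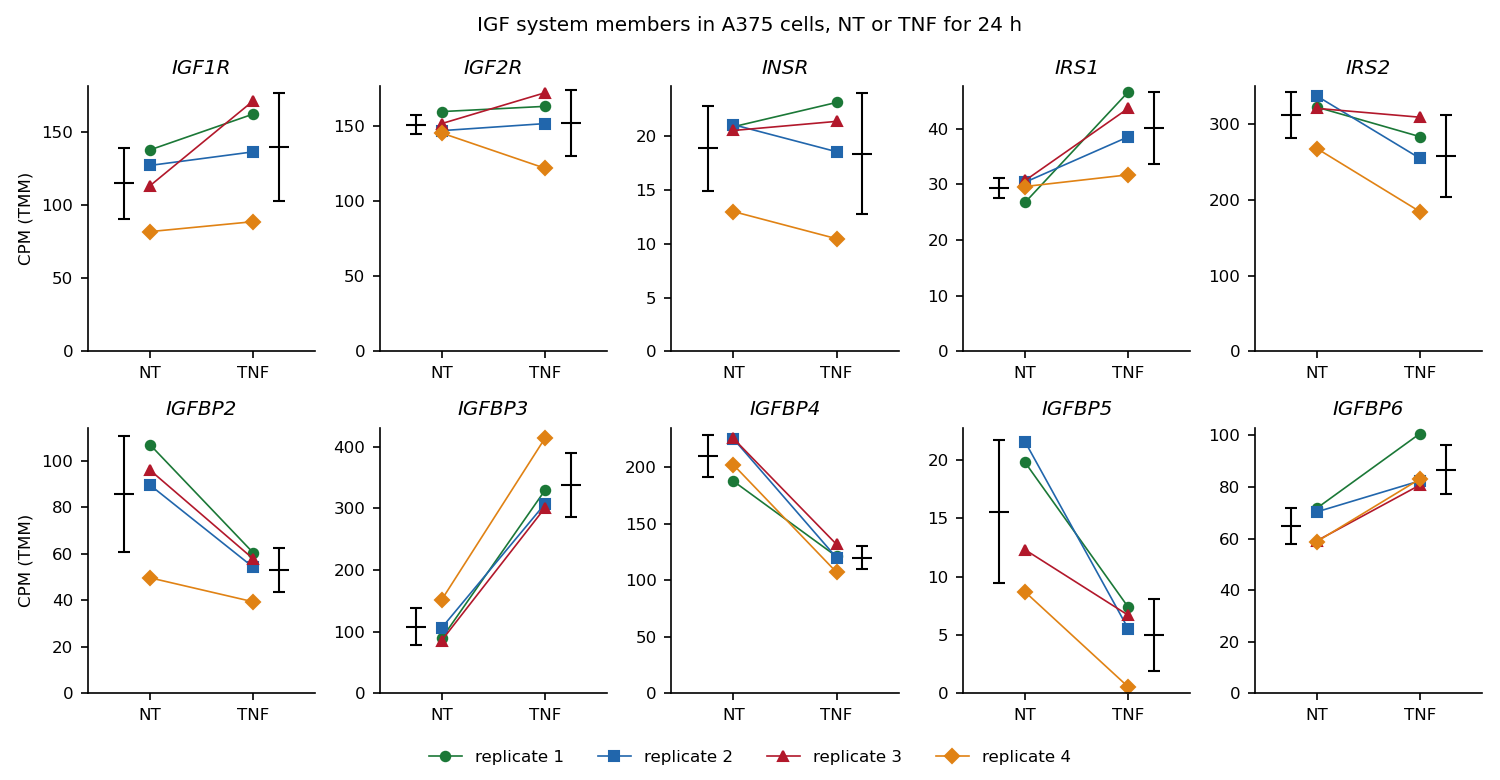
CPM of each IGF system gene with TMM factors (y axis, starting at 0) for NT and TNF at 24 h (x axis). Each symbol is a library, a line connects the NT and TNF library of 1 replicate, and the mean ± SD of 4 libraries stands in black beside them. IGFBP3 rises from 85.8 to 152 CPM in NT cells to 301 to 414 CPM with TNF, and replicate 4 is the lowest in both groups for 6 genes.

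IGFBP3, the main carrier of circulating IGFs and a binding protein that also restrains growth without IGF, gave the largest rise of the 10. Its level in NT replicates 1 to 4 was 89.1, 106, 85.8 and 152 CPM (counts scaled to library size with TMM factors). In TNF replicates 1 to 4 it was 329, 307, 301 and 414 CPM. Every TNF library lay above every NT library, and replicate 4 was the highest in both groups. The means were 108 ± 30.4 CPM (SD, n = 4) and 338 ± 52.1 CPM (SD, n = 4), a 3.12-fold difference with a 95% confidence interval from 2.36 to 4.13. The log2 fold change was 1.64 (standard error 0.18, edgeR adjusted p = 0.000107), ranked 461 by size of change among the 2345 higher genes. Within replicates the log2 CPM rose by 1.45 to 1.89, in 4 of 4 pairs. IGFBP3 kept its call in all 18 alternative fits, with log2 fold changes from 1.53 to 1.84.

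IGFBP6, a binding protein that prefers IGF2 over IGF1, was higher by a smaller amount. It was at 71.8, 70.4, 59.1 and 58.8 CPM in NT replicates 1 to 4 and at 101, 82.4, 80.8 and 83.1 CPM in TNF replicates 1 to 4. The groups did not overlap, and TNF replicate 1 was the highest. This was a 1.33-fold difference (95% confidence interval 1.14 to 1.55), or 0.42 in log2 terms (standard error 0.10, edgeR adjusted p = 0.0114). Its call also held in all 18 alternative fits, where the adjusted p reached 0.0471 at most. Both IGFBP3 and IGFBP6 reached p = 0.0286 in an exact two-sided permutation test of log2 CPM, the smallest p that 4 libraries against 4 allow.

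IGFBP4, which inhibits IGF action until the protease PAPPA cleaves it, was lower with TNF. Its level in NT replicates 1 to 4 was 187, 225, 225 and 202 CPM, and in TNF replicates 1 to 4 it was 121, 120, 132 and 107 CPM. All TNF libraries lay below all NT libraries, with a coefficient of variation of 8.80% in NT and 8.42% in TNF cells. IGFBP4 fell by 0.81 in log2 terms (standard error 0.09, edgeR adjusted p = 7.46e-05), so that NT cells held 1.75-fold as much (95% confidence interval 1.53 to 2.0). The exact permutation p was 0.0286 and the call held in all 18 alternative fits.

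IGFBP2, a binding protein often raised in tumors, was lower with TNF but with a wider spread. NT replicates 1 to 4 held 107, 89.6, 96.1 and 49.7 CPM, and TNF replicates 1 to 4 held 60.5, 54.3, 57.9 and 39.4 CPM. NT replicate 4 fell within the range of the TNF libraries, so the groups overlapped, although TNF was the lower of each pair. IGFBP2 fell by 0.69 in log2 terms (standard error 0.22, edgeR adjusted p = 0.0421), and by 0.66 with the title date as a block (adjusted p = 0.000108). It missed the threshold when any library besides NT replicate 4 was dropped (edgeR adjusted p from 0.0627 to 0.116), with limma voom (0.0600) and with no filter on low counts (0.193), and the exact permutation p was 0.114. Without both libraries of replicate 4 the difference was -0.77 on the log2 scale (edgeR adjusted p = 7.35e-05).

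IGFBP5, the binding protein with affinity for the extracellular matrix, had the largest difference downward and the least certain. It was at 19.8, 21.6, 12.3 and 8.70 CPM in NT replicates 1 to 4 and at 7.38, 5.53, 6.69 and 0.550 CPM in TNF replicates 1 to 4. The groups did not overlap, and replicate 4 was the lowest in both. TNF replicate 4 held 17 counts, where the other TNF libraries held 180 to 289. The log2 fold change was -1.62 (standard error 0.56) and missed the threshold (edgeR adjusted p = 0.0654, exact permutation p = 0.0286). It passed with the title date as a block (log2 fold change -1.73, adjusted p = 0.0491), without TNF replicate 4 (-1.26, adjusted p = 0.0182) and without both libraries of replicate 4 (-1.46, adjusted p = 0.00102). In total IGFBP5 passed in only 6 of 18 alternative fits, where the adjusted p reached 0.245 at most. A long noncoding RNA on the opposite strand, DIRC3-AS1, overlaps IGFBP5, and its counts came to 6.21% of those of IGFBP5.

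**Figure D2:**
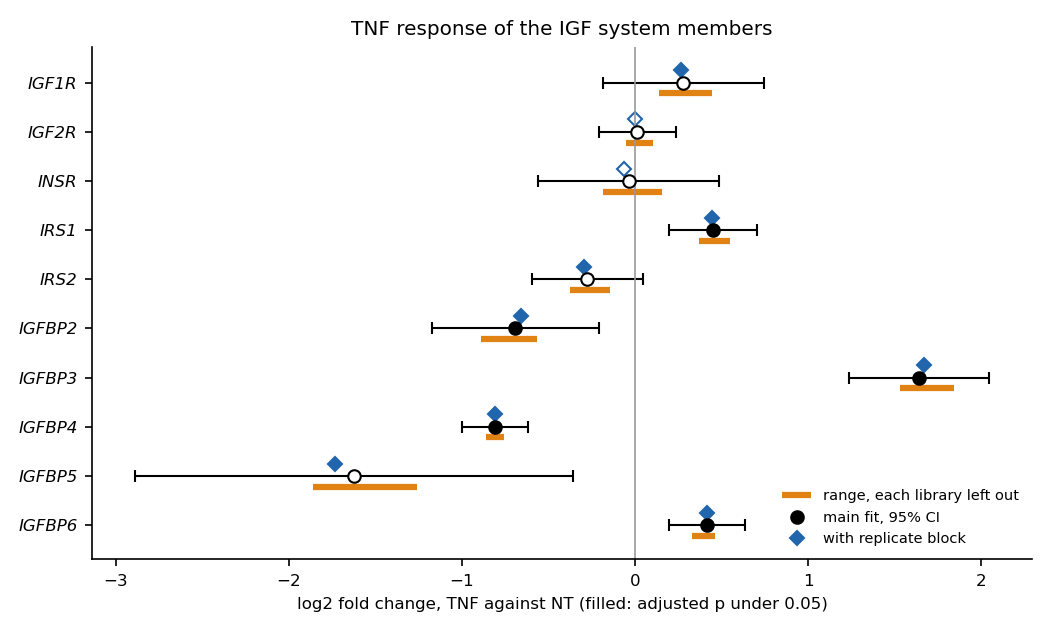
Log2 fold change of each member, TNF against NT (x axis). Black points with bars are the edgeR fit with 95% confidence intervals, blue diamonds the fit with the replicate as a block and orange bars the range over the fits that leave out 1 library each, and filled symbols have an adjusted p under 0.05. IGFBP3 at 1.64 and IGFBP4 at -0.81 lie far from 0, and IGFBP5 at -1.62 has the widest interval.

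IGFBP2, IGFBP3 and IGFBP5 each have another binding protein gene as neighbour. IGFBP2 and IGFBP5 both had lower values with TNF, though IGFBP5 missed the threshold. On chromosome 2 of GRCh38, IGFBP2 (216632828 to 216664436, plus strand) and IGFBP5 (216672105 to 216695549, minus strand) lie tail to tail, 7668 bases apart, with 0 annotated genes between them. On chromosome 7, IGFBP1 (45888360 to 45893660, plus strand) and IGFBP3 (45912245 to 45921874, minus strand) lie tail to tail 18584 bases apart, again with 0 genes between them. IGFBP1, which is not among the 10 and is known as an insulin-repressed liver gene, held 1, 5, 3 and 3 counts in NT replicates 1 to 4 and 27, 18, 28 and 25 in TNF replicates 1 to 4. It was near 0 in NT cells and higher in every TNF library, by 3.01 in log2 terms (standard error 0.42, edgeR adjusted p = 0.000448). IGFBP1 passed the filter on low counts only through the TNF libraries, where it was high. IGFBP4 (chromosome 17, 40443450 to 40457725) and IGFBP6 (chromosome 12, 53097436 to 53102345) lie elsewhere, both on the plus strand. The canonical transcript has 5 exons in IGFBP3 and 4 in each of the other 4 binding protein members (GENCODE release 44).

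Promoters of 4 binding proteins are shown from RefSeq on GRCh38.p14, 250 bases before to 50 bases after the transcription start. They are IGFBP3 with the largest rise, IGFBP5 with the largest fall (which missed the threshold), IGFBP6 with a smaller rise and IGFBP2, the neighbour of IGFBP5. That of IGFBP4 is not shown. Capitals mark matches, on either strand, to the NF-kB consensus or to the GC box GGGCGG. The NF-kB consensus, the binding motif of the transcription factor that TNF activates, was searched as GGGRNNYYCC. There R is A or G, Y is C or T and N is any base. IGFBP2 has 3 listed starts, and that of its canonical transcript was used.
IGFBP3, chr7:45921223-45921522, minus strand: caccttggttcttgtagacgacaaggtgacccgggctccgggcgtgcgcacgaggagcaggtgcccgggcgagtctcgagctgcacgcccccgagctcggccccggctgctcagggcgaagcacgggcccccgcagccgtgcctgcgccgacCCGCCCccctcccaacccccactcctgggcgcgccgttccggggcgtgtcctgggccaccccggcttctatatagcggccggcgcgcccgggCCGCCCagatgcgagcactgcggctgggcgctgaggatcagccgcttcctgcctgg
IGFBP6, chr12:53097417-53097716, plus strand: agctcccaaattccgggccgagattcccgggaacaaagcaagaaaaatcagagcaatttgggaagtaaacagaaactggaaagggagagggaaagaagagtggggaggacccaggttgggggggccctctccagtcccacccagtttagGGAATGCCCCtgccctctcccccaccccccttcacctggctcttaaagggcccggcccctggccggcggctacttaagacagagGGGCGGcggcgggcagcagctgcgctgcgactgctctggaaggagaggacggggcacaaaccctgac
IGFBP2, chr2:216633170-216633469, plus strand: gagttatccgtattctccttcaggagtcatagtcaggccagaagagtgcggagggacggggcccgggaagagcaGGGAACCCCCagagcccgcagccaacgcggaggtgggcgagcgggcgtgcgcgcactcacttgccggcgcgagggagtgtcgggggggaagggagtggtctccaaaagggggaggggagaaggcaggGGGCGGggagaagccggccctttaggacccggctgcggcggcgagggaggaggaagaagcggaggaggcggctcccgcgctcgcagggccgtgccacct
IGFBP5, chr2:216695500-216695799, minus strand: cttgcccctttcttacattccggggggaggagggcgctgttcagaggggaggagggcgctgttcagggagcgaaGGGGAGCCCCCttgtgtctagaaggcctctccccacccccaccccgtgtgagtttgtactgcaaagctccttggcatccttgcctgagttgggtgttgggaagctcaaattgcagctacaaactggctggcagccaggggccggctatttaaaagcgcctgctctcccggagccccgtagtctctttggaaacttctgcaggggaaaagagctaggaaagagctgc
The IGFBP3 window, of the gene with the largest rise, held 0 matches to the NF-kB consensus and 2 GC boxes, at 98 to 93 and at 6 to 1 bases before the start. The IGFBP6 window held an NF-kB consensus match at 101 to 92 bases before the start. IGFBP2 held a match at 176 to 167 bases and IGFBP5 held overlapping matches from 176 to 166 bases before the start, though both genes had lower values with TNF. The IGFBP4 window held no such match. Over the 10 members, 4 promoters held a match to the NF-kB consensus (also that of IRS1), beside 11.3% of 35116 promoters in the table. The GC box was in 9 of the 10, all but IGFBP5, beside 45% of all promoters, and the members' promoters were rich in G and C, at 59.0% to 79.7% against a median of 58.7%. The motif TATAAA was found in IGFBP4 (11.5% of all promoters), CACGTG in IGF2R and IRS1 (7.26%) and TGANTCA in 0 of the 10 (7.71%). A match here describes letters in a short window.

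The order of the members by level was compared per length, as CPM per kilobase of the canonical transcript. In NT cells IGFBP4 led at 95.2 ± 8.38 CPM per kb (SD, n = 4), above IGFBP6 at 68.7 ± 7.39. IGFBP6, IGFBP2 (60.5 ± 17.7) and IGFBP3 (41.4 ± 11.6) followed, and each overlapped its neighbour in the order, as IGFBP3 did with IRS2 (38.3 ± 3.73). IGF2R (10.8 ± 0.456) and IGF1R (9.42 ± 1.99) overlapped each other, and IRS1 (3.0 ± 0.183), IGFBP5 (2.50 ± 0.977) and INSR (2.0 ± 0.415) were the lowest, with overlaps between neighbours. In TNF cells IGFBP3 led at 129 ± 19.9 CPM per kb, with no overlap with IGFBP6 at 91.6 ± 9.88, and IGFBP4 came next at 54.3 ± 4.58. The level of IGFBP2 depends on the transcript assumed, and with its longest transcript it was 19.4 CPM per kb in NT and 12.0 in TNF cells.

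The makeup of binding protein mRNA shifted, and its sum was somewhat higher with TNF. Per kilobase, the 5 IGFBP genes added up to 268 ± 14.9 CPM per kb (SD, n = 4) in NT and 313 ± 15.9 in TNF cells, from 248 to 284 and from 298 to 331 CPM per kb, without overlap. IGFBP3 held 12.5%, 14.3%, 12.3% and 23.4% of this sum in NT replicates 1 to 4, and 38.0%, 39.4%, 38.1% and 49.1% in TNF replicates 1 to 4. IGFBP4 held 31.1% to 38.2% in NT and 15.0% to 19.8% in TNF libraries. The share of IGFBP2 ran from 14.2% to 27.6% in NT and from 8.64% to 13.6% in TNF libraries, that of IGFBP6 from 23.4% to 27.7% and from 27.2% to 32.1%, and that of IGFBP5 stayed at or under 1.22%. Thus the most abundant binding protein transcript was IGFBP4 in each NT library and IGFBP3 in each TNF library. With the longest transcript of each gene, the mean share of IGFBP2 was 9.11% in NT and 4.49% in TNF cells, that of IGFBP3 19.3% and 47.5%, and that of IGFBP4 44.6% and 20.3%, an alternative chosen after seeing the data. These shares follow from the levels above and carry no test of their own.

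**Figure D3:**
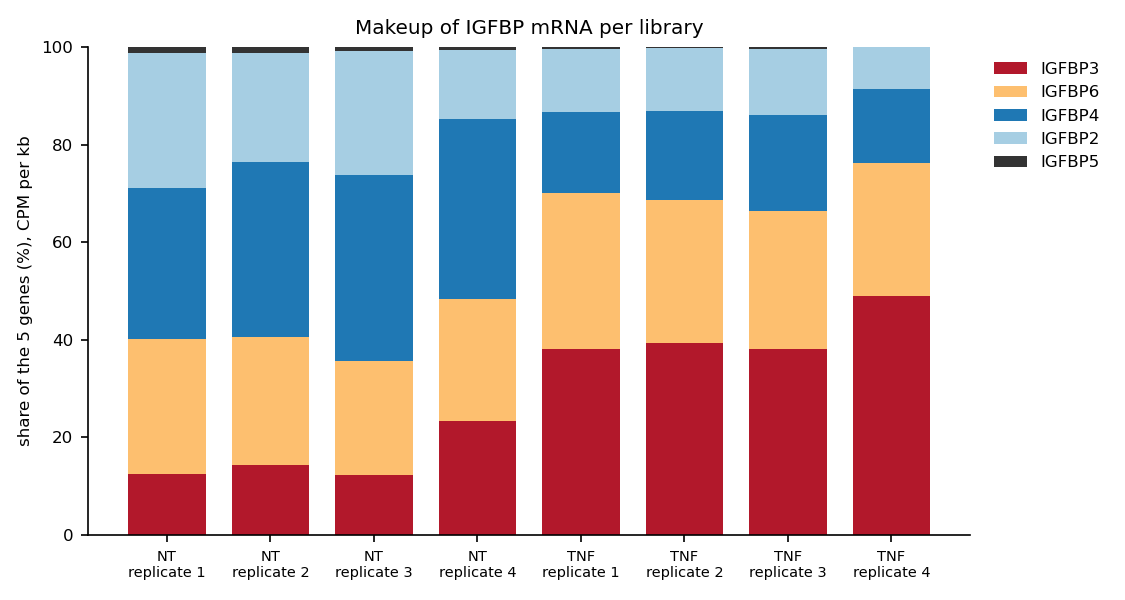
Share of each of 5 IGFBP genes in their summed level per library (y axis, percent of CPM per kb), for 4 NT and 4 TNF libraries (x axis). The share of IGFBP3 is 12.3% to 23.4% in NT and 38.0% to 49.1% in TNF libraries, and that of IGFBP4 falls from 31.1% to 38.2% to between 15.0% and 19.8%.

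Among the receptors, none passed the threshold in the fit without a block. IGF1R (chromosome 15, 98648539 to 98964530, plus strand, 21 exons), the kinase receptor for IGF1 and IGF2, was at 138, 127, 113 and 82.1 CPM in NT replicates 1 to 4. In TNF replicates 1 to 4 it was at 163, 137, 172 and 88.9 CPM. The groups overlapped, with replicate 4 the lowest in both, yet the TNF library was the higher in 4 of 4 pairs, by 0.10 to 0.60 on the log2 scale. IGF1R had a log2 fold change of 0.28 (95% confidence interval -0.18 to 0.75, edgeR adjusted p = 0.388). With the title date as a block it passed, with a log2 fold change of 0.26 (adjusted p = 0.0301), as it did without both libraries of replicate 4 (0.31, adjusted p = 0.0460).

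INSR (chromosome 19, 7112255 to 7294414, minus strand, 22 exons), the insulin receptor, was the lowest of the 3 receptors. It was at 20.9, 21.1, 20.6 and 13.0 CPM in NT replicates 1 to 4 and at 23.2, 18.6, 21.4 and 10.5 CPM in TNF replicates 1 to 4. Replicate 4 was low in both groups, and the other libraries of the groups overlapped. INSR had a log2 fold change of -0.04 (95% confidence interval -0.56 to 0.48, edgeR adjusted p = 0.937), with TNF higher in 2 pairs and lower in 2. Its sign changed on leaving out single libraries or replicate 4.

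IGF2R (chromosome 6, 159969082 to 160113507, plus strand, 48 exons), the scavenging receptor, had the lowest coefficient of variation of the 10 in NT cells (4.24%), at 160, 147, 152 and 146 CPM in replicates 1 to 4. TNF replicates 1 to 4 held 163, 152, 172 and 122 CPM. The TNF libraries lay on both sides of the NT range. Its log2 fold change was 0.01 (95% confidence interval -0.21 to 0.24, edgeR adjusted p = 0.950), and turned negative with upper-quartile factors (-0.04) and library totals (-0.07).

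Of the receptor substrates, only IRS1 passed the threshold without a block. IRS1 (chromosome 2, 226731312 to 226799820, minus strand), the docking protein of IGF1R and INSR that recruits PI3K, was at 26.8, 30.4, 30.7 and 29.6 CPM in NT replicates 1 to 4. TNF replicates 1 to 4 held 46.6, 38.5, 43.7 and 31.7 CPM. Each TNF library lay above all NT libraries, but TNF replicate 4 did so by little. IRS1 was 1.37-fold higher with TNF (95% confidence interval 1.15 to 1.63), or 0.45 in log2 terms (standard error 0.11, edgeR adjusted p = 0.0153, exact permutation p = 0.0286). The call held in 17 of 18 alternative fits and ended with library totals (0.38, adjusted p = 0.0539).

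IRS2 (chromosome 13, 109752695 to 109786583, minus strand), the second docking protein and the more abundant per length, was at 322, 337, 321 and 268 CPM in NT replicates 1 to 4. In TNF replicates 1 to 4 it was at 283, 255, 309 and 184 CPM. The groups overlapped, and TNF was the lower of each of the 4 pairs, by 0.05 to 0.54 on the log2 scale. IRS2 had a log2 fold change of -0.27 (95% confidence interval -0.59 to 0.04, edgeR adjusted p = 0.209) and -0.29 with the title date as a block, which passed the threshold (adjusted p = 0.0137). Per kilobase, IRS2 exceeded IRS1 at 38.3 against 3.0 CPM per kb in NT cells and at 31.6 against 4.11 in TNF cells.

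Replicate 4 was set apart for much of the IGF system. In both groups it was the lowest library for IGF1R, IGF2R, INSR, IRS2, IGFBP2 and IGFBP5, and the highest for IGFBP3. Over all genes tested, 19.4% had replicate 4 lowest in both groups and 21.7% highest in both. The part of the title date in these levels was not tested beyond the block and the fits without replicate 4.

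The ligands of these receptors were close to absent from the libraries, and none of them could be tested. IGF2 held 6, 13, 2 and 7 counts in NT replicates 1 to 4 and 7, 12.1, 17 and 8 in TNF replicates 1 to 4, with overlapping groups. INS had 0 counts in every library, which allows up to 3 counts per library, or 0.0641 to 0.0971 CPM, and IGF1 had at most 0.12. These limits cover counting error only. The serum of the medium is a further source of IGFs that RNA cannot show.

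Genes around the members were read from lists of 68 other pathway genes, of which 58 passed the filter. IGFBP1, GRB14 and PAPPA passed it only through their TNF libraries. Of the 58, 15 were higher and 8 lower with TNF (edgeR, adjusted p under 0.05), beside the 14.5% and 9.9% of all genes. With the title date as a block 22 were higher and 13 lower, beside 21.3% and 18.2% of all genes. Their median log2 fold change was 0.08. With upper-quartile factors 10 were higher and 10 lower. With library totals 10 were higher and 12 lower, beside 11.9% and 15.5% of all genes. Over all genes, lower calls outnumbered higher calls with either scaling, as given above.

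Of 6 other binding proteins and receptor relatives, 3 passed the filter. Of these, 2 were higher and 1 lower, beside 14.5% and 9.9% of all genes. IGFBP1 passed the filter only through its TNF libraries, where it was high. IGFBP7, a secreted relative with weak affinity for IGFs, was at 10.2, 10.2, 8.88 and 12.4 CPM in NT replicates 1 to 4 and at 35.9, 35.1, 21.9 and 38.5 CPM in TNF replicates 1 to 4. It was higher in every TNF library, by 1.65 in log2 terms (standard error 0.17, edgeR adjusted p = 6.90e-05), beside 1.64 for IGFBP3. IRS4, a further docking protein, fell from 1.92 ± 0.370 to 0.563 ± 0.286 CPM (SD, n = 4 each), by 1.75 on the log2 scale (edgeR adjusted p = 0.00314). IGFBP1 was the other gene called. IGFBPL1, IGFALS and INSRR, the latter 2 an IGFBP partner in serum and an orphan receptor, held at most 11, 7 and 1 counts.

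The extracellular regulators of IGFBP cleavage gave some of the largest differences. PAPPA, the metalloprotease that cleaves IGFBP4 and IGFBP5, went from 0.330 ± 0.0837 to 1.56 ± 0.330 CPM (SD, n = 4 each), a log2 difference of 2.21 (edgeR adjusted p = 0.000202). PAPPA held 8.39 to 19 counts in NT and 46.26 to 62.45 in TNF libraries, and passed the filter only through the TNF libraries. STC1 and STC2, the stanniocalcins that inhibit PAPPA, rose as well. STC1 went from 1.51 ± 0.361 to 16 ± 2.30 CPM (log2 fold change 3.39, edgeR adjusted p = 7.60e-07) and STC2 from 9.55 ± 1.06 to 25.9 ± 1.36 CPM (1.44, adjusted p = 4.09e-06). HTRA1, a secreted serine protease that can cleave IGFBP5, fell by 1.36 on the log2 scale, from 32.4 ± 7.26 to 12.6 ± 1.87 CPM (edgeR adjusted p = 0.000242). Of 5 genes of this list that passed the filter, 3 were higher and 1 lower, beside 14.5% and 9.9% of all genes, and these calls held in every alternative fit run. With the title date as a block 3 were higher and 2 lower, beside 21.3% and 18.2%.

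**Figure D4:**
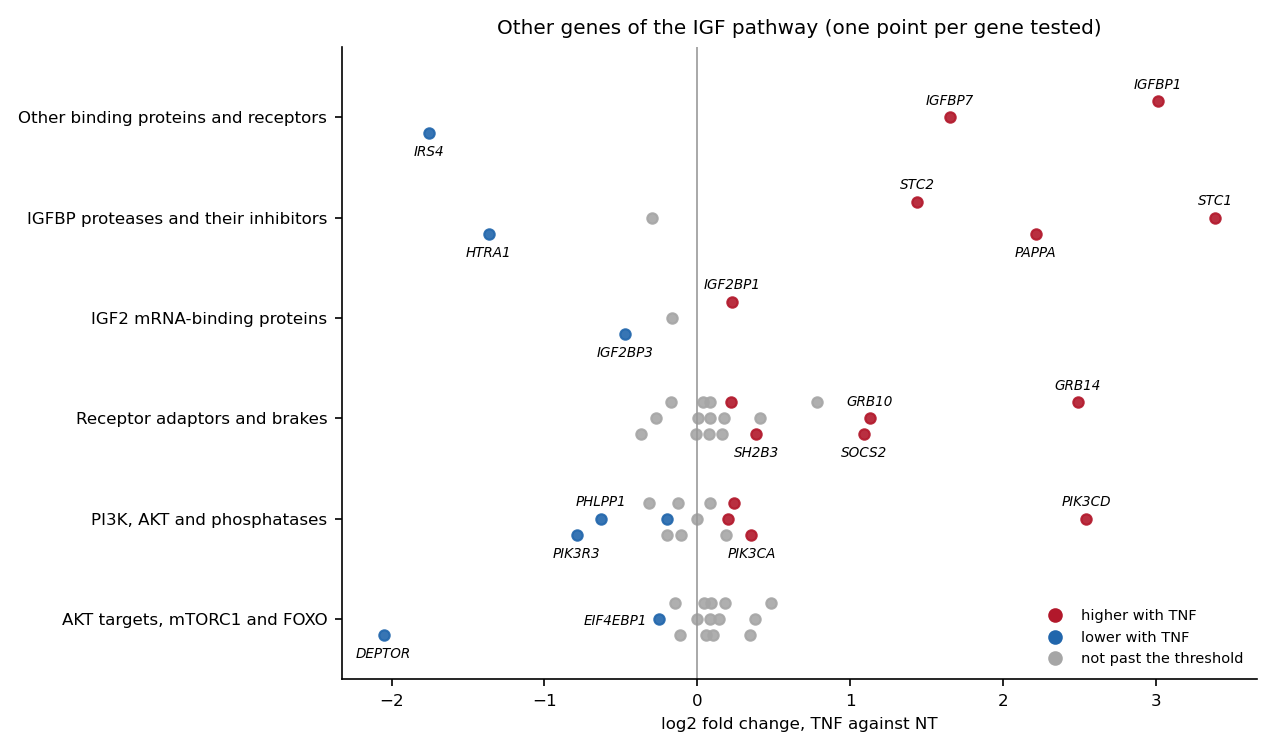
Log2 fold change, TNF against NT (x axis), of the 58 other IGF pathway genes tested, by list (y axis; vertical offsets within a list only separate points). Red points were higher and blue points lower with TNF at an edgeR adjusted p under 0.05 (15 and 8 genes), and grey points did not pass. STC1 at 3.39, IGFBP1 at 3.01 and PIK3CD at 2.54 lie farthest to the right and DEPTOR at -2.05 farthest to the left.

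Of 18 receptor adaptors and brakes, 5 were higher and 0 lower in edgeR, beside 14.5% and 9.9% of all genes. At an unadjusted p under 0.05 in edgeR 6 were higher and 1 lower, beside 3150 and 2548 of all 16186 genes. By DESeq2 and limma voom the counts at an adjusted p under 0.05 were also 5 and 0. Blocking by title date gave 7 and 1, beside 21.3% and 18.2% of all genes. GRB10, an adaptor that inhibits IGF1R and INSR, went from 16.5 ± 1.03 to 36.2 ± 5.64 CPM (SD, n = 4 each; log2 fold change 1.13, edgeR adjusted p = 4.77e-05). GRB14, its relative, differed by 2.49 in log2 terms (edgeR adjusted p = 0.00228) at under 1 CPM in all libraries. With 2 to 6 counts in NT and 17 to 29 in TNF libraries, GRB14 passed the filter only through the TNF libraries. SOCS2, a suppressor of cytokine receptor signaling, differed by 1.09 in log2 terms (edgeR adjusted p = 0.00285). SH2B3 had 0.38 (adjusted p = 0.0350), a call that ended on leaving out 6 of the 8 libraries in turn and with upper-quartile factors or library totals.

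Of 14 genes of PI3K, AKT and their phosphatases, 4 were higher and 3 lower, beside 14.5% and 9.9% of all genes. PIK3CD, the PI3K catalytic subunit best known from leukocytes, went from 25.3, 22.1, 21.1 and 17.0 CPM in NT replicates 1 to 4 to 145, 119, 126 and 109 CPM in TNF replicates 1 to 4. The groups were far apart, with a 5.83-fold difference (95% confidence interval 4.77 to 7.12, edgeR adjusted p = 4.87e-07). PIK3CA, the widely expressed catalytic subunit, rose by 0.35 on the log2 scale (adjusted p = 0.00555). PIK3R3, a regulatory subunit, fell by 0.79 (adjusted p = 0.000214) and PHLPP1, a phosphatase of AKT, by 0.63 (adjusted p = 0.00149). Of 15 AKT targets and mTORC1 and FOXO genes, 0 were higher in edgeR (0 by DESeq2 and limma voom too) and 2 were lower. These stand beside the same 14.5% and 9.9%. At an unadjusted p under 0.05 in edgeR 4 were higher and 3 lower, beside 3150 and 2548 of all 16186 genes. Blocking by title date gave 4 higher and 3 lower, beside 21.3% and 18.2% of all genes. DEPTOR, an inhibitor of mTOR, fell by 2.05 on the log2 scale, from 8.19 ± 3.47 to 1.96 ± 0.575 CPM (adjusted p = 0.00109), and EIF4EBP1, a repressor of translation, by 0.25 (adjusted p = 0.0164).

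The IGF2 mRNA-binding proteins, which stabilize IGF2 and other transcripts, differed among themselves. IGF2BP3 fell by 0.47 on the log2 scale, from 139 to 162 CPM in NT to 83.1 to 128 CPM in TNF libraries (edgeR adjusted p = 0.0204), and IGF2BP1 rose by 0.23 (adjusted p = 0.0382). The third of them, IGF2BP2, did not pass, so 1 was higher and 1 lower, beside 14.5% and 9.9% of all genes. With the title date as a block 1 was higher and 2 lower, beside 21.3% and 18.2%. The call of IGF2BP1 ended in 11 of 18 alternative fits and that of IGF2BP3 in 3.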

How the data were processed

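Polyadenylated RNA of 8 A375 libraries was sequenced from stranded libraries. Per the methods, the authors aligned reads with bowtie2 to the GRCh38 transcriptome (v97) and estimated counts per gene with RSEM 1.2.25, whose strand setting the sources used here do not give. Expected counts were deposited without normalization and were rounded to whole numbers. RSEM divides reads shared between genes, so IGF2R, IRS2, IGFBP2 and IGFBP7 have fractional counts. Columns were matched to samples by title. The counts filed under each NT record were those of another NT library, so the table of the whole series was used throughout. The pairing of NT with TNF libraries, and so the block and the counts of pairs, rests on the column titles of that table.

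Genes were filtered with edgeR (minimum count 10, total 15), scaled with TMM factors and compared in R 4.3.3 by the robust quasi-likelihood test of edgeR 4.0.16, with treatment as the model term, with Benjamini-Hochberg adjustment over 16186 genes and a threshold of 0.05. Log2 CPM used a prior count of 2. Libraries of the same date deviated together from their group means (r across genes 0.351, 0.169, 0.238 and 0.461 for replicates 1, 2, 3 and 4). Correlations between libraries of unlike dates are not given here. The date was taken to pair the libraries, and it entered as a block in an alternative. Other alternatives were DESeq2 1.42.0 (the authors' tool), limma 3.58.1 voom, RLE and upper-quartile factors, library totals, other filters, libraries left out and a threshold of 0.01. The fitting step was tested on simulated data. Positions and lengths come from GENCODE release 44, which is not the annotation the authors used. Promoter sequences matched all 10 members.

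Members and lists were chosen with earlier results of these data known. Named genes are the members, up to 4 called genes with the largest change per pathway list, all ligands and other binding proteins and receptors with counts, and the most abundant markers. INS, IGF1, IGF2BP2, DIRC3-AS1, S100B, single markers near 0 and the remaining markers of other cell types were named after their values were seen.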

Additional observations from a re-analysis of the deposited data

Results flagged for a closer look

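In 58 groups of 4 libraries examined for the members and named pathway genes, 8 held a library far from the other 3 of its group, where 2.9 would by chance. Among the members, the log2 CPM of INSR was 3.7078 in NT replicate 4 (others 4.37 to 4.40), that of IGFBP5 was -0.72359 in TNF replicate 4 (others 2.48 to 2.89) and that of IGFBP6 was 6.6549 in TNF replicate 1 (others 6.34 to 6.38). Among the other genes it was 4.4556 for IGFBP7 in TNF replicate 3 (others 5.14 to 5.27), 3.6534 for STC1 in TNF replicate 2 (others 4.07 to 4.12), 4.4423 for HTRA1 in NT replicate 3 (others 5.11 to 5.24), 4.1773 for GRB10 in NT replicate 1 (others 3.99 to 4.02) and 7.411 for EIF4EBP1 in NT replicate 4 (others 7.54 to 7.56). Of these 8, 3 were libraries of replicate 4. The cause was not tested.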

How the results depend on the processing

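IGFBP3, IGFBP4 and IGFBP6 kept their direction and call in all 18 alternative fits. With the replicate block, 4 members were higher and 4 lower, 22 and 13 pathway genes, and 3451 and 2946 of all genes. With no filter on low counts 1 member was lower, as IGFBP2 missed the threshold, and the cause was not tested. With library totals 2514 of all genes were lower. At an adjusted p under 0.01, 1 member was higher and 1 lower, 5 pathway genes were lower, and 1548 of all genes were higher and 772 lower. Leaving out 1 library each gave 3 members higher in every case and 1 to 2 lower, 10 to 19 pathway genes higher and 5 to 9 lower, and 1880 to 2521 of all genes higher and 1110 to 1896 lower. The direction of IGF2R turned with upper-quartile factors (-0.043), library totals (-0.066, and -0.082 in log2 CPM) and no filter (-0.0016), and without 1 library its log2 fold change ran from -0.0508 to 0.105 and its log2 CPM difference from -0.0617 to 0.104. That of INSR turned without both libraries of replicate 4 (0.0075) and without the 3 libraries with more 7SL, 7SK and ribosomal RNA (0.021), and ran from -0.185 to 0.154 without 1 library (log2 CPM difference -0.241 to 0.177). The cause of these turns was not tested, and none of these values passed a test. In exact permutation tests the sign-flip test of pairs cannot go below 0.125 and 3 libraries against 4 cannot go below 0.0571, so they say nothing on stability. IGFBP5 in TNF replicate 4 rests on 17 counts.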
